A study of Homo sapiens with 42 samples.

Results

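A375 cells in which p53 had been depleted by siRNA were exposed to MLN4924, and their RNA was compared with that of p53 siRNA cells given the solvent DMSO. The comparison rests on 9 of the 42 arrays of the series, identified by their sample titles. They are 3 arrays of p53 siRNA with 650 nM MLN4924 for 26 hours and 6 arrays of p53 siRNA with 0.065% DMSO for 26 hours. The DMSO arrays form a first and a second set of 3. The comparison and the gene lists used below were chosen with earlier results of these data known. All cells were A375, an established melanoma line of human origin, with mutant BRAF and functional p53, and in every sample 27000 cells were treated after 48 hours of transfection. MLN4924 was also given, at the same dose and time, to A375 cells carrying GL2 siRNA, which targets firefly luciferase and serves as a control, and to cells carrying an siRNA against CDT1. The first of these groups has 3 MLN4924 and 6 DMSO arrays, the other 3 and 3. The knockdown is transient, and an array reads the RNA of a whole culture, so that a change in all cells and a change in a fraction of them cannot be told apart, nor can fewer cells of a kind and less RNA per cell.

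MLN4924 blocks the NEDD8-activating enzyme, which charges the ubiquitin-like protein NEDD8 for transfer to cullins. Cullin-RING ubiquitin ligases need this modification to be active, so that their substrates, among them the replication licensing factor CDT1, the antioxidant regulator NRF2, the hypoxia factor HIF1A and the kinase WEE1, are no longer marked for the proteasome. These substrates are controlled as proteins, whereas the arrays measure RNA. The transcription factor p53 responds to the DNA damage that re-replication causes, and its depletion reduces the induction of the kinase inhibitor p21, encoded by CDKN1A.

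The effect of the siRNA before treatment was read through CDKN1A. This gene had a log2 signal of 6.50 to 7.59 on the 6 p53 siRNA DMSO arrays, against 9.03 to 9.26 on the 6 GL2 DMSO arrays, with no overlap. Of the 7 measured melanoma lineage markers only MLANA was dim on all 9 arrays, dim meaning a signal under 31.9, the median of all values. SOX10, S100B, MITF and PAX3 were above that level in DMSO. The sums in this paragraph are of linear signals at the scaling the authors deposited. At that scaling the median gene lay lower on the MLN4924 arrays, as described below. The summed signal of the 7 markers ran from 2137 to 2872 with DMSO and from 637 to 696 with MLN4924. The sums of 8 epithelial markers were 2150 to 3005 and 3204 to 3479, those of 8 fibroblast markers 477 to 678 and 351 to 405, and those of 6 leukocyte markers 357 to 465 and 217 to 252. Dim on all 9 arrays were EPCAM, CDH1 and KRT19 (3 of 8 epithelial markers), COL3A1, PDGFRA and FAP (3 of 8 fibroblast markers), and PTPRC and CD14 (2 of 6 leukocyte markers). The other members of these lists were not dim on every array. With MLN4924 the epithelial sum was larger than that of the melanoma markers. The part of these markers in the results was not tested. The ratio of 5' to 3' signal of actin, a sign of intact RNA, was 0.858 to 0.945 on the DMSO arrays and 0.888 to 0.911 on the MLN4924 arrays. No labels say that replicates came from separate cultures, so the p-values measure a spread among samples that may be technical only. That spread was estimated over all 14 groups of the series and not over the 9 arrays alone.

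The MLN4924 arrays differed from the DMSO arrays in the shape of their signals, and this set how changes could be counted. At the scaling the authors deposited, the median gene lay at a log2 signal of 5.63 to 5.71 on the 3 MLN4924 arrays and of 6.04 to 6.16 on the 6 DMSO arrays. Arrays were centred on their median gene here, which moved every change by 0.42 and left a median change over all genes of 0.20, where it was -0.22 at the deposited scaling. The shift depended on brightness. In the brightest of 5 equal bands of genes the median change was 0.45 after centring and 0.03 as deposited, and in the dimmest band 0.06 and -0.36. Quantile normalization and cyclic loess, which bend each array to a common distribution or to its neighbours, gave medians of 0.04 and 0.02. Calls required limma's adjusted p (Benjamini-Hochberg) to lie under 0.05 and the change to reach 1.5-fold. The words rose and fell are used below for genes called the same way at all 4 scalings, and all other calls are given as calls after centring. Changes are log2 differences from the mean of both DMSO sets, ± the standard error of the fit.

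**Figure D1:**
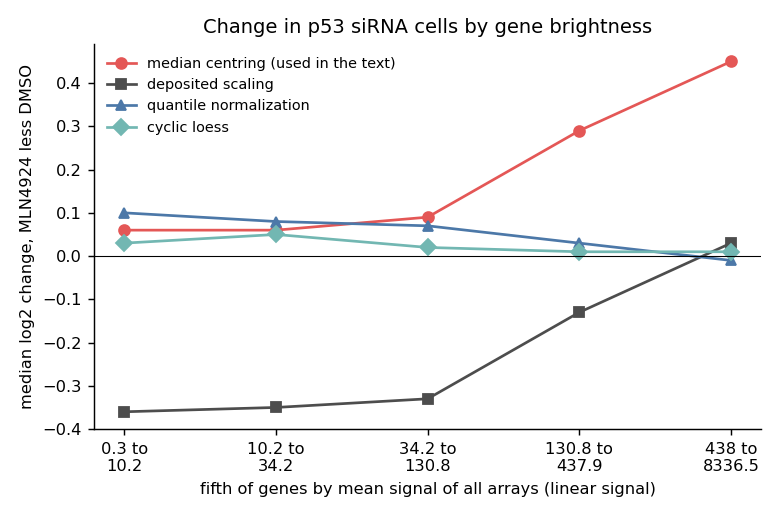
Median log2 change of all genes with MLN4924 in p53 siRNA cells (vertical axis) in 5 equal bands of genes ordered by mean linear signal (horizontal axis), under 4 ways of scaling the arrays. After median centring the median runs from 0.06 in the dimmest to 0.45 in the brightest band, at the deposited scaling from -0.36 to 0.03, and under cyclic loess it stays between 0.01 and 0.05.

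MLN4924 altered a large part of the transcriptome of the p53-depleted cells. Of 19775 genes, 3535 were called higher (17.9%) and 1522 lower (7.70%) after centring, 1063 and 3473 at the deposited scaling, 1610 and 1966 after quantile normalization and 1695 and 2176 after cyclic loess. At all 4 scalings 974 genes rose (4.93%) and 1476 fell (7.46%), and these percentages are the background for every list below. Of those 2450 genes, 2202 had their 3 MLN4924 arrays entirely outside the range of the 6 DMSO arrays, and 2041 were called the same way against either DMSO set on its own. The DMSO sets differed from each other in 17 genes called higher and 40 called lower in the second set.

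Among genes that were not dim, the largest increases were those of CHAC1, ATF3, MYC, SNAPC1, ADM, EID3, TMEM45A, TRIB3, DCLK1 and GADD45B, and the largest decreases those of ST8SIA4, S100B, SYTL5, ERBB3, LOXL4, SOX10, CD96, CAPS, ZCCHC24 and FXYD3. SNAPC1, a subunit of the small nuclear RNA activating complex, lay at 8.91, 9.02 and 9.13 (lowest, median and highest of 6 DMSO arrays). On the MLN4924 arrays it lay at 12.19, 12.38 and 12.42, a change of 3.31 ± 0.14. ST8SIA4, a polysialyltransferase, went the other way, from 9.21, 9.53 and 9.72 to 5.55, 5.33 and 5.49, a change of -4.05 ± 0.15. Neither gene had an MLN4924 array within the DMSO range, and both adjusted p-values were small (1.3e-17 and 1.8e-18).

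**Figure D2:**
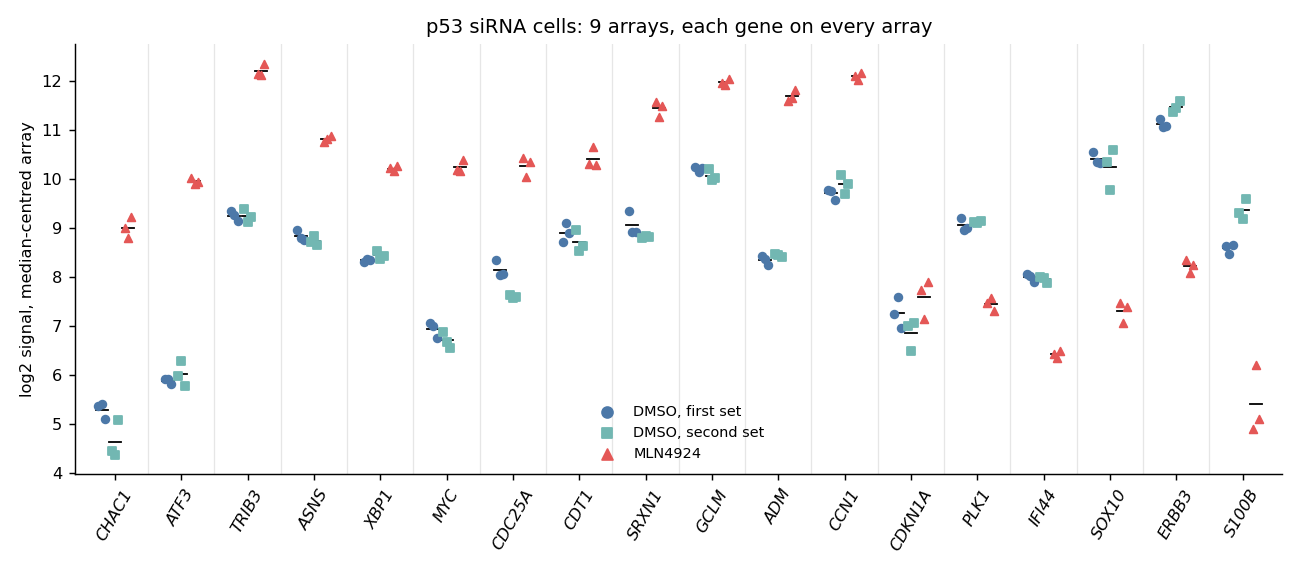
Log2 signal after median centring (vertical axis) of 18 genes on each of the 9 arrays of p53 siRNA cells, with points for arrays and a line for the mean of each set of 3. The stress, growth and antioxidant genes from CHAC1 to CCN1 lie above all DMSO arrays with MLN4924, CDKN1A overlaps with them, and the genes from PLK1 to S100B lie below.

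The genes of neddylation and the proteasome had few calls that held at all 4 scalings, and the substrate receptors had more. Of 35 measured genes of neddylation and the cullin core, 11 were called higher and 0 lower after centring, but only DCUN1D2, a NEDD8 ligase component, rose at all 4 scalings (1.21 ± 0.14). The median change of the list was 0.50 after centring and 0.08 after cyclic loess, against 0.20 and 0.02 for all genes. Of 46 substrate receptors 17 were called higher and 3 lower after centring, and 7 rose (15.2%) and 3 fell (6.52%). DTL, the receptor that marks CDT1 for destruction, went from 9.69, 9.94 and 10.09 with DMSO to 11.70, 11.68 and 11.84, a change of 1.81 ± 0.26. KEAP1, the receptor for NRF2, rose by 1.26 ± 0.10 and FBXW7, a receptor for MYC and cyclin E, by 1.06 ± 0.15. DDB2, a p53 target that recognises damaged DNA, fell by 0.80 ± 0.13, and SOCS2 and ASB9 fell by 0.94 and 0.70. Of 38 proteasome genes 12 were called higher after centring, of which only PSMG1, an assembly chaperone, rose at all 4 scalings (1.21 ± 0.16), and the median of this list was 0.54 after centring and 0.03 after cyclic loess.

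Several proteins that cullin-RING ligases degrade were also higher as RNA. Of 47 measured substrate genes, 22 were called higher and 5 lower, and 15 rose and 5 fell at all 4 scalings. MYC, a growth-promoting transcription factor, lay at 6.56, 6.83 and 7.06 with DMSO and at 10.18, 10.16 and 10.40 with MLN4924, which is 10.7-fold (3.42 ± 0.14, adjusted p = 5.3e-18). All 3 MLN4924 arrays were more than 3 log2 units above the highest DMSO array. CDC25A, the phosphatase that activates S phase kinases, lay at 7.58, 7.83 and 8.35 with DMSO and at 10.43, 10.04 and 10.36 with MLN4924 (2.40 ± 0.30). CDT1 itself rose from 8.53, 8.81 and 9.11 to 10.31, 10.65 and 10.30 (1.61 ± 0.26, adjusted p = 5.7e-06). The groups did not overlap in either gene. PMAIP1, a death-promoting BCL2 family member, rose by 2.27 ± 0.20, the AP-1 subunit JUN by 1.86 ± 0.10, and the G2 kinase gene WEE1 by 1.23 ± 0.17. CDKN1C, encoding the kinase inhibitor p57, fell from 7.98, 8.26 and 8.35 to 3.47, 4.35 and 4.71, where it was dim, and SREBF1, a master gene of lipid synthesis, fell by 1.11 ± 0.12.

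ATF4 stress genes had the largest share of members that rose at all 4 scalings, while after centring alone ribosome biogenesis (85.7% called higher), amino acid supply (75%) and aminoacyl-tRNA synthetases (72.2%) lay above them (71.4%). ATF4 is translated preferentially when the initiation factor eIF2 is phosphorylated, for instance on amino acid shortage or endoplasmic reticulum stress, and it induces genes of amino acid supply together with regulators of cell death. Of 28 measured ATF4 stress genes 20 were called higher and 1 lower, and 17 rose and 1 fell at all 4 scalings (60.7% and 3.57%). Their median change was 1.40 after centring and 1.22 after cyclic loess. Promoter sequence from RefSeq (GRCh38.p14, 250 bases before the start of transcription, 5′ to 3′) is shown for 3 raised genes that carry the ATF4 core element TGATGNAA on either strand, in capitals, because these genes include the pair with the largest bright increases.
CHAC1 (chr15:40953221-40953470, plus strand): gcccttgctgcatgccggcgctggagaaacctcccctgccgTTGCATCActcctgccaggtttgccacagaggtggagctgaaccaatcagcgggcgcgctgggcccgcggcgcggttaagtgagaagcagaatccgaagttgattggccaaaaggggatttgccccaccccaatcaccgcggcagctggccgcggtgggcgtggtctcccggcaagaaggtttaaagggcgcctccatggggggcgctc
ATF3 (chr1:212565157-212565406, plus strand): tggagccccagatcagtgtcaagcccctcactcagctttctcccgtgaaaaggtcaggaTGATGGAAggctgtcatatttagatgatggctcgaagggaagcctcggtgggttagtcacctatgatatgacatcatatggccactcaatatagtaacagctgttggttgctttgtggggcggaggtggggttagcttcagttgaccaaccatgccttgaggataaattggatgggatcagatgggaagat
ASNS (chr7:97872409-97872658, minus strand): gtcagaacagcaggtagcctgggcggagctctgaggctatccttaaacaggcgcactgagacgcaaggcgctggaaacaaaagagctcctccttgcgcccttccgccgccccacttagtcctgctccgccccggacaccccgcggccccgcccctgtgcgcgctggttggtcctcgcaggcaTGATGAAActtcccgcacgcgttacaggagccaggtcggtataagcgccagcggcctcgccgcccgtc
The element was searched in 15384 promoters of the measured genes and found in 2.31% of them. It was found in 3 of the 22 ATF4 stress genes with a promoter entry and in 2 of the 13 of these that rose. In amino acid supply it was found in 4 of 26 genes and in 3 of the 10 of these that rose. Among all genes that rose, it was found in 1.9% of 790 promoters. A match describes the sequence only, and a window without one says only that these letters are not in it. Only 1 start of transcription per gene was searched, here and below, and any other start of a gene was not.

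CHAC1, whose product cleaves glutathione, lay at 4.38, 5.10 and 5.42 with DMSO and reached 9.0, 8.80 and 9.22 with MLN4924. The change was 4.03 ± 0.28, or 16.4-fold (adjusted p = 1.2e-12). ATF3, a stress-induced transcription factor, went from 5.78, 5.93 and 6.29 to 10.03, 9.91 and 9.95, a change of 4.01 ± 0.14 (adjusted p = 1.8e-19). In both genes the arrays of the groups lay more than 3 log2 units apart. TRIB3, a pseudokinase that restrains ATF4 signalling, lay at 9.12, 9.24 and 9.40 and then at 12.14, 12.13 and 12.36 (2.96 ± 0.19). DDIT3, encoding the pro-apoptotic factor CHOP, rose by 2.25 ± 0.26, PPP1R15A, which lets eIF2 be dephosphorylated, by 2.76 ± 0.26, and SESN2, a leucine sensor upstream of mTORC1, by 2.45 ± 0.18. CEBPG, a partner of ATF4 on DNA, went from 7.10, 7.25 and 7.35 to 9.61, 9.65 and 9.59 (2.39 ± 0.25). The exception was SLFN5, a Schlafen family gene, which fell to dim values (-2.29 ± 0.20).

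Many genes of amino acid supply also rose. Of 32 measured members 24 were called higher and 0 lower, and 14 rose at all 4 scalings, with a median of 1.06 after centring and 0.73 after cyclic loess. ASNS, asparagine synthetase, went from 8.66, 8.77 and 8.96 to 10.75, 10.83 and 10.88 (2.03 ± 0.18, adjusted p = 2.4e-10), with the groups well apart. The 2 chains of the cystine transporter rose, SLC3A2 by 1.85 ± 0.11 and SLC7A11 by 1.70 ± 0.17, as did the arginine transporter SLC7A1 (1.38 ± 0.11). So did the enzymes of serine synthesis, PHGDH by 1.15, PSAT1 by 1.14 and PSPH by 1.37, and the mitochondrial one-carbon enzymes SHMT2 and MTHFD2, by 1.17 and 1.21. Of 18 aminoacyl-tRNA synthetases 13 were called higher after centring, and YARS1, SARS1 and FARSB rose at all 4 scalings, by 1.29, 1.26 and 1.16.

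Genes of the endoplasmic reticulum were called less broadly. Of 33 chaperone and degradation genes of this compartment, 6 were called higher and 3 lower, and 2 rose and 3 fell at all 4 scalings, near the background. XBP1, the transcription factor of the IRE1 branch, went from 8.31, 8.38 and 8.54 to 10.23, 10.16 and 10.26 (1.81 ± 0.18, adjusted p = 1.1e-09), and ATF6, the sensor of another branch, rose by 1.01 ± 0.10. HSPA5, the main chaperone of this compartment, lay at 12.12 to 12.31 with DMSO and at 12.38 to 12.52 with MLN4924, a difference of 0.24 ± 0.10 after centring and -0.29 after cyclic loess that was not called. ERO1B, an oxidase for disulfide bonds, fell by 1.46 ± 0.20.

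Many antioxidant genes under NRF2 rose. NRF2, the product of NFE2L2, is held at low levels by KEAP1 and CUL3 and activates genes through the antioxidant response element. Of 40 measured targets, 20 were called higher and 1 lower, and 15 rose and 1 fell at all 4 scalings. RefSeq promoters (GRCh38.p14, 250 bases before the start) of a pair of raised genes show that element, searched as TGACNNNGC on both strands, in capitals.
GCLM (chr1:93909431-93909680, minus strand): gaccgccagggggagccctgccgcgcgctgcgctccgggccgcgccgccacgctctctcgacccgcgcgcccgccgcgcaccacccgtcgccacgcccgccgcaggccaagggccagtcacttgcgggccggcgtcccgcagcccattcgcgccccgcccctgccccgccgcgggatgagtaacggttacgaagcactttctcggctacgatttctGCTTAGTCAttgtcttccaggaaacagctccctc
TXNRD1 (chr12:104215529-104215778, plus strand): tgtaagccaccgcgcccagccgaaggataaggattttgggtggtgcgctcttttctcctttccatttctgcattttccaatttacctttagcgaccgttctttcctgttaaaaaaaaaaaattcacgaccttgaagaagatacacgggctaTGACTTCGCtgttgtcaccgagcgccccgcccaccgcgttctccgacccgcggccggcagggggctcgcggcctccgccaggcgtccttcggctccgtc
These letters occur in 12.0% of all 15384 promoters and in 7 of the 30 NRF2 targets with an entry. GCLM, the regulatory subunit of the glutathione-synthesising ligase, went from 9.99, 10.18 and 10.24 to 11.97, 11.92 and 12.05 (1.84 ± 0.12, adjusted p = 4.2e-13). TXNRD1, thioredoxin reductase, went from 11.06, 11.39 and 11.58 to 12.96, 12.85 and 13.07 (1.6 ± 0.12). SRXN1, which reactivates peroxiredoxins, rose most among the brighter targets, from 8.81, 8.88 and 9.35 to 11.58, 11.26 and 11.49 (2.5 ± 0.14). In these 3 genes every MLN4924 array lay above every DMSO array. AKR1B10, an aldo-keto reductase, rose by 2.24 ± 0.12, the heme-degrading enzyme gene HMOX1 by 1.04, and NFE2L2 was called higher after centring (0.72 ± 0.13) but not after cyclic loess (0.27). ABCC3, an efflux pump, fell to dim values (-1.86).

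Many targets of hypoxia signalling also rose. HIF1A is degraded through the CUL2 ligase that contains VHL, and its targets serve glycolysis, blood vessel growth and mitophagy. Of 42 measured targets 23 were called higher and 1 lower, and 15 rose and 1 fell at all 4 scalings. The promoter of BNIP3, a mitophagy receptor, is shown as an example, with the hypoxia element searched as ACGTGC on both strands in capitals; at this place it overlaps itself on the opposite strand and the E-box CACGTG.
BNIP3 (chr10:131981924-131982173, minus strand): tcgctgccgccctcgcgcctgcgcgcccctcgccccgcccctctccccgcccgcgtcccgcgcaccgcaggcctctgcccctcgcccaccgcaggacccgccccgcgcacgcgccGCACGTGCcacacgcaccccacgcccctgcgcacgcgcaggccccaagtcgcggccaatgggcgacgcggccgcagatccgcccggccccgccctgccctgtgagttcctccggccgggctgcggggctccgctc
The element was found in 6.55% of all 15384 promoters and in 14 of the 37 hypoxia targets with an entry. BNIP3 averaged 10.84 ± 0.18 (SD, n = 6) with DMSO and lay, without overlap, at 12.39, 12.40 and 12.54 (1.61 ± 0.11, adjusted p = 1.4e-12). ADM, the vasodilator peptide adrenomedullin, rose most, from 8.25, 8.42 and 8.47 to 11.60, 11.65 and 11.82 (3.29 ± 0.11), and the DMSO and MLN4924 arrays lay more than 3 log2 units apart. VEGFA, the angiogenic growth factor, rose by 1.94 ± 0.20, PDK1, which inhibits pyruvate dehydrogenase, by 1.95 ± 0.15, and the glucose transporter SLC2A3 by 1.80 ± 0.14. ANGPTL4 fell to dim values (-1.74 ± 0.28).

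Many YAP and TEAD targets rose. YAP is a coactivator that responds to cell density and tension and is restrained by the Hippo kinases LATS1 and LATS2. Of 29 measured targets 17 were called higher and 1 lower, and 14 rose and 1 fell at all 4 scalings (48.3% and 3.45%). CCN2, a secreted matrix-associated protein, is shown with its promoter because it carries the TEAD element GGAATG in 3 copies, in capitals.
CCN2 (chr6:131951373-131951622, minus strand): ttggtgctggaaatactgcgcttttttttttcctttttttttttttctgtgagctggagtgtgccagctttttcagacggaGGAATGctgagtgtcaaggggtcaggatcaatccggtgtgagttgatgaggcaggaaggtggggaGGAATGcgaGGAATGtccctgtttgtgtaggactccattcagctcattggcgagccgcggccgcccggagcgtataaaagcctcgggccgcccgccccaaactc
On both strands the element was found in 10.3% of all 15384 promoters and in 6 of the 23 targets with an entry. CCN2 went from 8.55, 8.81 and 9.15 to 11.01, 10.89 and 11.14 (2.18 ± 0.22), and its relative CCN1 from 9.58, 9.77 and 10.09 to 12.10, 12.03 and 12.16 (2.30 ± 0.12, adjusted p = 4.8e-15). Neither gene had overlapping groups. ANKRD1, dim with DMSO, rose by 3.58 ± 0.28, the scaffold gene AJUBA by 2.07 ± 0.11 and LATS2, the kinase that opposes YAP, by 1.27. NT5E, the ectonucleotidase CD73, fell by 1.03 ± 0.10.

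The growth factor and inflammatory lists were mixed. Of 31 AP-1 and immediate early genes 9 rose and 4 fell, of 27 genes of MAPK output 9 rose and 7 fell, and of 41 NF-kB targets and cytokines 9 rose and 5 fell. EGR1, an immediate early factor, went from 6.0, 6.74 and 6.99 to 8.04, 7.94 and 8.03 (1.37 ± 0.21). The MAPK phosphatases DUSP1 and DUSP5 rose by 1.54 and 1.62, while DUSP6, which reports ERK activity, was 0.51 ± 0.16 lower and not called, and SPRY2 and the ETS factors ETV1 and ETV5 fell by 0.83, 1.32 and 0.71. PLAUR, the urokinase receptor, rose by 1.72 ± 0.09, the cytokine IL24 by 1.84 ± 0.23 and the chemokine CXCL2 by 1.25 ± 0.17. SERPINA3, an acute phase protease inhibitor, fell from 8.87, 9.57 and 9.84 to 4.61, 4.30 and 5.27 (-4.76 ± 0.23), where it was dim.

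Genes of ribosome production were mostly higher. Of 42 measured genes of ribosome biogenesis 36 were called higher and 0 lower after centring, and 17 rose at all 4 scalings. Their median change was 0.95 after centring, 0.53 at the deposited scaling and 0.51 after cyclic loess, against 0.20, -0.22 and 0.02 for all genes. BYSL, a factor of the small subunit, went from 8.16, 8.29 and 8.48 to 10.05, 9.92 and 10.00 (1.69 ± 0.12), and NIP7, a factor of the large subunit, from 9.98, 10.33 and 10.72 to 11.82, 11.99 and 11.98 (1.62 ± 0.19). Both groups of arrays lay apart in each gene. Among 19 genes of the MYC network, MYC, its antagonist MXI1 (2.00 ± 0.11) and the glycolytic target HK2 (1.56) rose, and MXD3 fell to dim values (-1.62).

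Calls among cell cycle genes differed in direction from list to list. Of 19 origin licensing genes 11 were called higher and 0 lower, and 6 rose at all 4 scalings: CDC6 (1.89 ± 0.21), CDT1, ORC1 (1.50 ± 0.19), MCM7 (1.31), MCMBP (1.23) and MCM10 (1.09 ± 0.26). CDC6, the loader of the replicative helicase, lay at 9.32, 9.67 and 10.00 with DMSO and at 11.54, 11.52 and 11.64 with MLN4924, without overlap. Of 45 replication fork and nucleotide genes 28 were called higher and 0 lower after centring, and 7 rose at all 4 scalings, among them TIPIN (1.64) of the fork protection complex and the clamp loader subunits RFC1, RFC2 and RFC3 (1.15, 1.24 and 1.13). Of 38 recombination and Fanconi repair genes 6 rose and 0 fell, among them EXO1 (1.87), RAD54L (1.57) and BLM (1.41). Of 38 E2F factors and cyclins 12 were called higher and 5 lower, and 4 rose and 5 fell, and of 32 replication-type histones 0 rose and 5 fell. Of 56 mitotic genes 1 rose, the transcription factor gene MYBL2 (1.38 ± 0.25), and 8 fell. PLK1, the polo kinase of mitotic entry, went from 8.97, 9.12 and 9.21 to 7.47, 7.57 and 7.32 (-1.64 ± 0.17), AURKA fell by 0.99 ± 0.11 and CCNB1, cyclin B1, by 1.23. The median of the mitotic list was 0.01 after centring and -0.36 after cyclic loess, against 0.20 and 0.02 for all genes.

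Known p53 targets were split in these p53-depleted cells. Of 52 measured targets 21 were called higher and 6 lower, and 12 rose and 6 fell at all 4 scalings. CDKN1A lay at 6.50, 7.03 and 7.59 with DMSO and at 7.74, 7.15 and 7.90 with MLN4924. One MLN4924 array lay within the DMSO range, and the difference of 0.54 ± 0.15 (adjusted p = 0.00349) fell short of 1.5-fold and was 0.11 after cyclic loess. MDM2, the ligase that degrades p53, was called higher after centring (0.68 ± 0.13) but not after cyclic loess (0.20). The targets that rose were SESN2, PMAIP1, FBXW7, EPHA2, KITLG, AEN, PPM1D, DUSP14, TNFRSF10B, GADD45A, GDF15 and FAS, and SESN2, TNFRSF10B and GDF15 are also members of the ATF4 list. GADD45A, a damage-inducible regulator of the cell cycle, went from 9.34, 9.49 and 9.65 to 11.83, 11.86 and 11.99 (2.42 ± 0.13). GDF15, a stress cytokine that was dim with DMSO, rose by 2.40 ± 0.21, and FAS, a death receptor, by 1.11 ± 0.14. Among those that fell were TRIM22, CCNG2, DDB2 and NINJ1. CCNG2, cyclin G2, went from 7.89, 8.02 and 8.07 to 6.47, 6.82 and 6.38 (-1.44 ± 0.14). None of its MLN4924 arrays reached the DMSO range.

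Interferon-stimulated genes fell without exception among those called. Of 48 measured members 0 rose and 17 fell at all 4 scalings (35.4%), with a median of -0.33 after centring and -0.56 after cyclic loess. These genes answer to the STAT and IRF factors, which bind the interferon-stimulated response element. Promoters of a pair of genes that fell are shown (RefSeq, GRCh38.p14, 250 bases before the start), with matches to the core of that element, searched on both strands, in capitals.
IFI44 (chr1:78649539-78649788, plus strand): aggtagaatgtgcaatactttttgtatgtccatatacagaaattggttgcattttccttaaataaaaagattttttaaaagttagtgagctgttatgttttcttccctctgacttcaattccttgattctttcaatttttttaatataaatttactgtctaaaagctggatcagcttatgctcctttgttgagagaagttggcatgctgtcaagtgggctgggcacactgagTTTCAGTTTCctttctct
IFIT1 (chr10:89392373-89392622, plus strand): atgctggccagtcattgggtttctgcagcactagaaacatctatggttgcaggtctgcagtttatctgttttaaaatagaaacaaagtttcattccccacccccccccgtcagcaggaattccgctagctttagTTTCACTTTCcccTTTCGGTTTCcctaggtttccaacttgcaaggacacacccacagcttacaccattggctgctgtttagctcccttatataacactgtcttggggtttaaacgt
The element was found in 2.48% of all 15384 promoters, in 23 of the 39 members of the list with an entry and in 11 of the 14 of these that fell. IFI44 went from 7.88, 7.99 and 8.06 to 6.43, 6.36 and 6.50 (-1.55 ± 0.12, adjusted p = 8.5e-12), with a narrow spread in both groups and no overlap. IFIT1, an RNA-binding effector of the antiviral response, went from 5.98, 6.33 and 6.69 to 3.15, 3.96 and 4.80 and was dim with MLN4924 (-2.33 ± 0.27). ISG20, an exonuclease, fell by 1.70 ± 0.16, PARP9 by 1.31 ± 0.12, IFI35 by 1.26 ± 0.16 and ISG15, a ubiquitin-like modifier, by 1.10 ± 0.15. Of the 17, 9 had a dim mean signal with MLN4924: IFI44L, IFIT1, BST2, IFITM1, OAS1, GBP2, DDX60, IFIT2 and OAS2. Of these, IFIT1 and OAS1 were above the dim level on every DMSO array.

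Some genes of the neural crest and melanocyte lineage fell. Of 28 measured lineage genes 2 were called higher and 9 lower after centring, and 0 rose and 9 fell at all 4 scalings. SOX10, the transcription factor that maintains this lineage, went from 9.78, 10.36 and 10.60 to 7.48, 7.06 and 7.39, which is 8.11-fold (-3.02 ± 0.21, adjusted p = 1.2e-12). ERBB3, a receptor under SOX10 control, went from 11.07, 11.30 and 11.59 to 8.36, 8.08 and 8.24 (-3.07 ± 0.15). S100B, a calcium-binding marker of melanoma, went from 8.47, 8.92 and 9.59 to 4.91, 6.21 and 5.11 (-3.56 ± 0.20). All MLN4924 arrays of these 3 genes lay below all DMSO arrays by more than 2 log2 units. NES and SOX2, markers of neural progenitors, fell by 2.34 ± 0.13 and 1.97 ± 0.19. MITF, the master regulator of pigment cells, lay at 7.33 to 8.26 with DMSO and 8.01 to 8.49 with MLN4924, and PAX3 at 8.09 to 8.49 and 8.0 to 8.33. The groups overlap in both, and neither was called (0.49 ± 0.19 and -0.07 ± 0.15).

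Some matrix and adhesion genes also fell. Of 56 measured members 2 were called higher and 20 lower after centring, and 0 rose and 20 fell at all 4 scalings (35.7%), with a median of -0.26 after centring and -0.59 after cyclic loess. COL9A3, a chain of collagen IX, went from 9.21, 9.32 and 9.52 to 7.82, 7.19 and 7.58 (-1.82 ± 0.15), and ITGB3, the integrin beta-3 chain of invasive melanoma, from 7.93, 8.22 and 8.68 to 6.49, 6.30 and 6.45 (-1.83 ± 0.25). The groups did not overlap. COL6A1, a chain of collagen VI, fell by 1.25 ± 0.10 and LAMB2, a laminin chain, by 1.12 ± 0.13.

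Lipid and lysosomal genes gave shorter lists. Of 32 sterol and fatty acid genes 0 rose and 5 fell at all 4 scalings. ABCA1, the cholesterol exporter, went from 7.19, 7.64 and 7.74 to 5.31, 5.59 and 5.51 (-2.08 ± 0.25), without overlap, and the elongase ELOVL6 fell by 0.97 ± 0.17. Of 40 autophagy and lysosome genes 4 rose and 4 fell. GABARAPL1, which coats forming autophagosomes, went from 7.53, 7.79 and 8.06 to 9.94, 9.93 and 9.95 (2.13 ± 0.13), while SESN3 (-2.72 ± 0.26) and TFEB, a master factor of lysosome genes (-2.24 ± 0.42), fell to dim values.

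**Figure D3:**
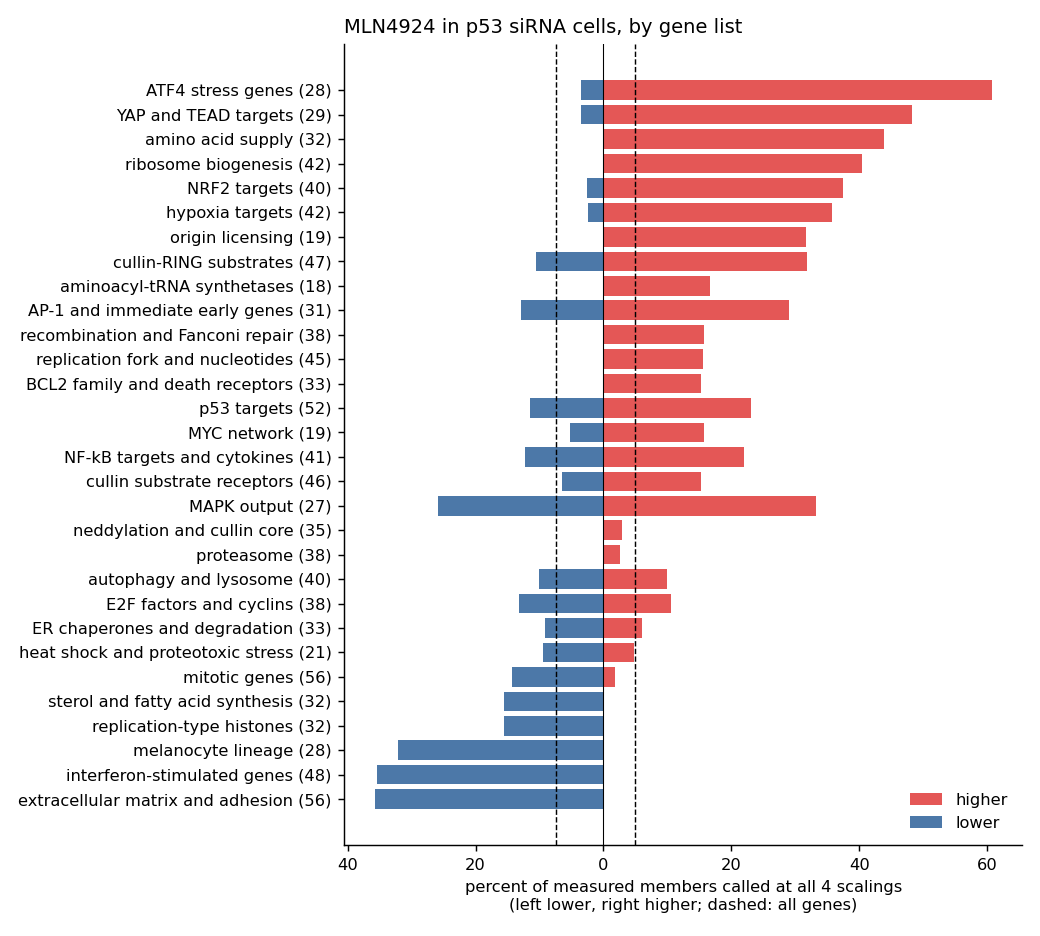
Share of the measured members of each list (number in brackets) that rose (right, percent) or fell (left, percent) with MLN4924 at all 4 scalings, with dashed lines at the 4.93% and 7.46% of all genes. ATF4 stress genes reach 60.7% on the right, and interferon-stimulated genes and matrix and adhesion genes reach 35.4% and 35.7% on the left.

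Whether p53 depletion altered the effect of MLN4924 was tested as the difference between its changes in p53 and GL2 siRNA cells, 2 comparisons that share no arrays. After centring, 1378 genes had a more positive change in p53 siRNA cells (6.97%) and 687 a more negative one (3.47%). At the deposited scaling the counts were 658 and 1435, and 601 (3.04%) and 663 (3.35%) were called the same way at all 4 scalings. The library labelled GL2 MLN4924 replicate 3 enters this test, and it went against its label: BRCA1 lay at 4.72 there and at 7.97 and 8.26 on the other arrays of its group. The library labelled BRCA1 MLN4924 replicate 3 had 8.20 where the others of its group had 4.95 and 5.30, and that labelled p53 daunorubicin replicate 1 had an actin 5' to 3' ratio of 0.0118. Without these 3 libraries 1306 genes were called more positive and 713 more negative, 1626 of them called the same way with and without the libraries. Without GL2 MLN4924 replicate 3 alone the counts were 889 and 501.

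The p53 targets were the list most often more negative. In GL2 siRNA cells 2024 of all 19775 genes were called higher with MLN4924 and 1410 lower, and of the 52 targets 41 and 0. The difference between the siRNAs was more negative in 26 and more positive in 2, and the counts were 26 and 1 without the 3 libraries and 26 and 0 at all 4 scalings. CDKN1A changed by 2.57 in GL2 and by 0.54 in p53 siRNA cells (difference -2.03 ± 0.21, adjusted p = 7.9e-08). The difference was -1.27 ± 0.19 for MDM2 and -2.96 ± 0.30 for GDF15. FUCA1, a lysosomal fucosidase and p53 target, was called higher in GL2 siRNA cells (1.13) and fell by 1.68 in p53 siRNA cells (difference -2.81 ± 0.15). DDB2 moved by 1.79 and -0.80 (-2.60 ± 0.19). ACTA2 (-2.56 ± 0.15), ANKRA2 (-2.45 ± 0.22), SESN1 (-2.33 ± 0.16) and PAQR6 (-2.14 ± 0.37) were, with FUCA1 and DDB2, the 6 largest among genes that were bright in all 4 groups compared.

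Replication and mitotic genes had the opposite difference. Against 1410 of all 19775 genes, 51 of the 56 mitotic genes were called lower with MLN4924 in GL2 siRNA cells. The difference was more positive in 49 of them, in 15 of 19 origin licensing genes and in 32 of 45 replication fork genes, and in 48, 14 and 26 without the 3 libraries. At all 4 scalings it was more positive in 45, 13 and 21. HJURP, the chaperone of centromeric histone, changed by -2.23 in GL2 and by -0.10 in p53 siRNA cells (difference 2.13 ± 0.34). Among genes bright in all 4 groups the 6 largest differences of this sign were those of ZNF367 (2.42 ± 0.37), CDC25A (2.30 ± 0.43), FBXO5, an inhibitor of the anaphase-promoting complex (2.18 ± 0.33), MYC (2.14 ± 0.19), CDCA5, which holds sister chromatids together (2.14 ± 0.27), and HJURP. Without the 3 libraries the difference was 1.88 for CDC25A and 2.12 for MYC. CDT1 rose by 1.61 in p53 siRNA cells, and its change in GL2 siRNA cells was -0.51 and not called, or 0.01 without the 3 libraries. The difference for CDT1 was 2.12 ± 0.36, or 1.6 without them.

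**Figure D4:**
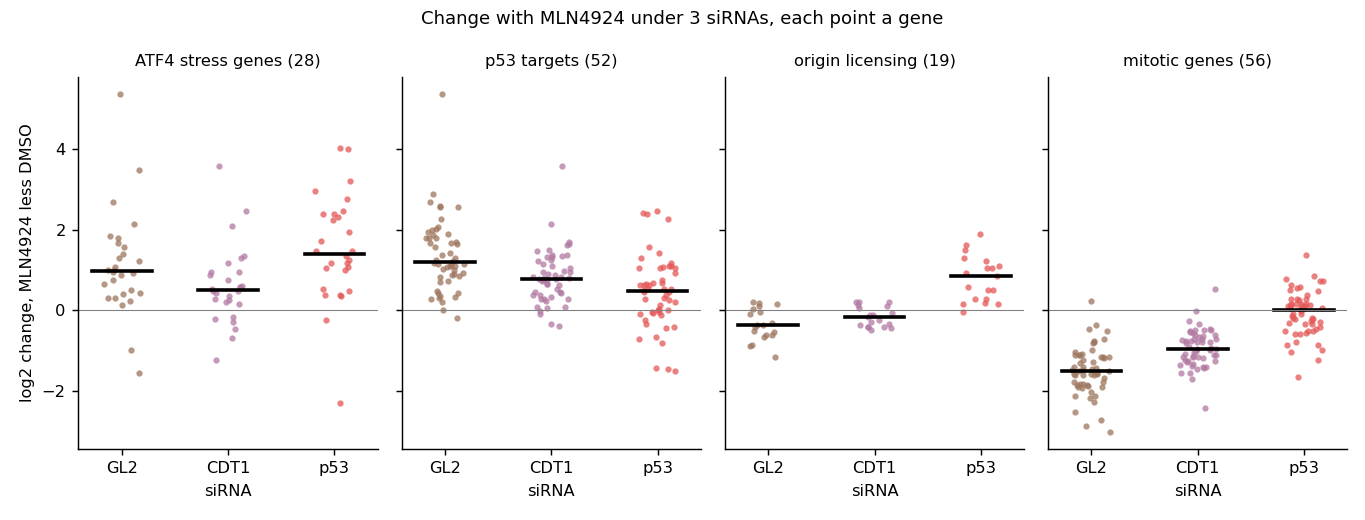
Log2 change with MLN4924 (vertical axis) of each member of 4 lists (points) in cells with GL2, CDT1 or p53 siRNA (horizontal axis), with a bar at the median. The medians of the p53 targets are 1.20, 0.79 and 0.49 in this order, those of the mitotic genes -1.49, -0.95 and 0.01, and those of the ATF4 stress genes 0.97, 0.50 and 1.40.

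The stress lists varied in this difference. It was more positive in 13 and more negative in 0 of the 32 genes of amino acid supply, with 5 more positive at all 4 scalings and 9 without the 3 libraries. Among the 28 ATF4 stress genes it was more positive in 6 and more negative in 2, and among the 40 NRF2 targets in 2 and 6. CEBPG lay at 8.56, 8.55 and 7.02 on the 3 GL2 MLN4924 arrays, the last being the doubted library. Its change in GL2 siRNA cells was 0.51 and not called, or 1.02 without the 3 libraries, against 2.39 in p53 siRNA cells (difference 1.88 ± 0.35, or 1.37 without the 3 libraries). XBP1 changed by 0.09 against 1.81 (1.73 ± 0.25, or 1.45 without the libraries), and TRIB3 by 1.29 against 2.96 (1.67 ± 0.27, or 1.26 without them). In GL2 siRNA cells ABCA1 changed by 0.02 against -2.08 (-2.11 ± 0.36), and IFIT1 by -0.07 against -2.33 (-2.26 ± 0.38). SOX10 and ERBB3 had differences of -0.55 ± 0.30 and -0.13 ± 0.22 that were not called, after decreases of 2.46 and 2.94 in GL2 siRNA cells. That of S100B was -0.90 ± 0.28, called at all 4 scalings but not without the 3 libraries. Of the 28 lineage genes the difference was more positive in 1 and more negative in 2. FOXD3, a neural crest transcription factor that fell to dim values, had a difference of -2.33 ± 0.45, or -2.26 without the 3 libraries.

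**Figure D5:**
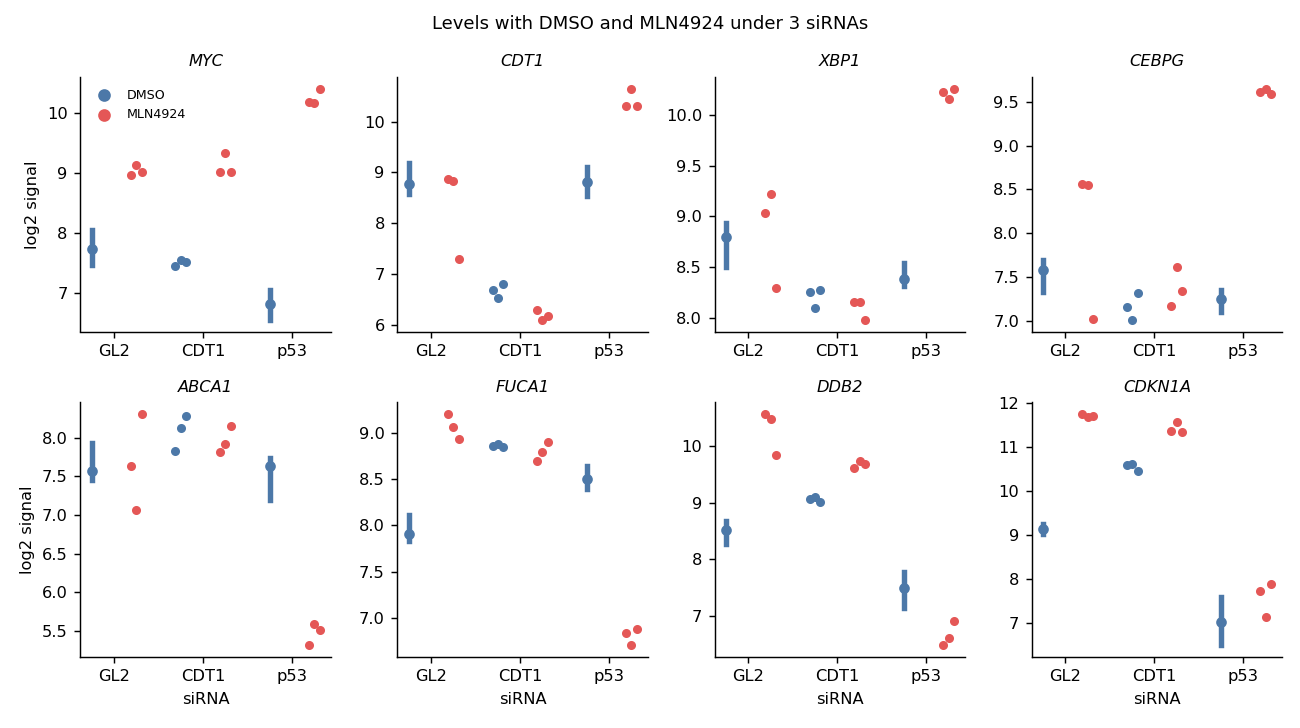
Log2 signal (vertical axes, which differ between panels) of 8 genes with DMSO (blue) and MLN4924 (red) under GL2, CDT1 and p53 siRNA, with points for arrays, and for the 6 DMSO arrays of GL2 and of p53 siRNA a bar over their range with a point at the median. On the p53 siRNA MLN4924 arrays XBP1 reads 10.16 to 10.26 and FUCA1 6.71 to 6.88, and CDKN1A reads at most 7.90 on any p53 siRNA array.

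The same question was asked against CDT1 siRNA, which leaves p53 in place. This comparison uses the same p53 siRNA arrays as the one with GL2, so the results are not independent. CDT1 was at 6.52 to 6.79 in CDT1 siRNA cells with DMSO and at 6.09 to 6.28 with MLN4924. After centring, 1239 genes had a more positive change in p53 siRNA cells (6.27%) and 489 a more negative one (2.47%), with 375 and 1361 at the deposited scaling and 309 (1.56%) and 419 (2.12%) at all 4 scalings. Of the ATF4 stress genes 15 of 28 were more positive and 2 more negative after centring, and 11 and 2 at all 4 scalings. ATF3 changed by 2.45 in CDT1 siRNA cells against 4.01 (difference 1.56 ± 0.21), TRIB3 by 0.96 against 2.96 (1.99 ± 0.29) and CEBPG by 0.21 against 2.39 (2.18 ± 0.38). EGR1 was called lower in CDT1 siRNA cells (-1.54) and rose by 1.37 in p53 siRNA cells (2.91 ± 0.32). The other largest positive differences were those of CDT1 (2.10 ± 0.39), CDC25A (2.02 ± 0.46) and ANXA2P2 (2.02 ± 0.59). CDT1 is the target of the CDT1 siRNA, so its change in those cells is that of a depleted transcript. ANXA2P2, an annexin pseudogene that shares sequence with ANXA2, was not called at every scaling.

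Differences of the other sign from CDT1 siRNA cells were led by LAPTM5, a lysosomal membrane protein, which was called higher there (0.97) and fell by 1.06 in p53 siRNA cells (-2.03 ± 0.22). ABCA1 (-1.96 ± 0.39), RAB40B (-1.78 ± 0.28), PAQR6 (-1.71 ± 0.40), TSPAN31 (-1.68 ± 0.30) and AKR1C3, a steroid-converting reductase (-1.66 ± 0.52), were the other largest of this sign. Of the p53 targets 15 of 52 were more negative and 5 more positive after centring, and 15 and 4 at all 4 scalings. MDM2 had a difference of -0.96 ± 0.21, GDF15 of -1.18 ± 0.33, and CDKN1A of -0.33 ± 0.22, which was not called. NFE2L2 had a difference of 0.71 ± 0.19 that was called after centring and not at every scaling. Of the mitotic genes 22 of 56 were more positive and 0 more negative after centring, and 9 were more positive at all 4 scalings.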

How the data were processed

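The series holds 42 Affymetrix arrays of A375 RNA, each from its own sample, and 9 of them form the comparison described. The deposited intensity values are linear signals of 54675 probe sets, which the submitters' processing notes credit to Affymetrix Expression Console, with its version not given in the sources used here. Trimming 2% at each end left a mean of 150.0 on every array, and 147 values of 0 were raised to 0.1. A single gene symbol was attached to 41097 probe sets, several to 1801 and none to 11777, and only the 41097 were used. The brightest probe set stood for each of 19775 genes, of which 10523 had several. Log2 values were centred on each array's median gene and fitted in limma 3.58.1 (R 4.3.3) over all 14 groups of 3, with 28 residual degrees of freedom. Calls needed a 1.5-fold change and an adjusted p under 0.05, with the Benjamini-Hochberg method applied across the whole table. Precision is limited by how many arrays there are. The fit was tested on simulated data.

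The comparison, its members and the gene lists were chosen with earlier results of these data known. Named genes were the 10 largest called changes in each direction, overall and among bright genes, up to 6 members per list and the 6 largest bright differences in each direction, by size or moderated statistic, with called members of a list named by role and CDT1, CDKN1A, MDM2, GDF15, ATF3 and NFE2L2 wherever discussed. A further gene of that rule is not reported here. Cyclic loess, leaving out 3 doubted libraries and the promoter search (RefSeq, GRCh38.p14, 15384 genes matched by symbol) were added after seeing the data. Tables were made with pandas 2.3.3, scipy 1.17.1 and numpy 2.4.6 under Python 3.11.15.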

Additional observations from a re-analysis of the deposited data

Results flagged for a closer look

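The effect of MLN4924 differed between p53 and GL2 siRNA cells by limma's test of the difference itself, with 1378 genes more positive and 687 more negative in p53 siRNA cells. On the log2 scale the differences were 2.42 for ZNF367, 2.30 for CDC25A, 2.18 for FBXO5, 2.14 for MYC, 2.14 for CDCA5, 2.13 for HJURP and 2.12 for CDT1. Negative differences were -2.96 for GDF15, -2.81 for FUCA1, -2.60 for DDB2, -2.56 for ACTA2, -2.45 for ANKRA2, -2.33 for SESN1, -2.14 for PAQR6, -2.03 for CDKN1A and -1.27 for MDM2. Without the 3 doubted libraries the differences were 1.88 for CDC25A, 2.12 for MYC, 1.6 for CDT1 and -3.04 for GDF15.

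Between p53 and CDT1 siRNA cells, 1239 genes were more positive and 489 more negative by the same test, with the same p53 siRNA arrays. In this comparison CDT1 is itself the target of the CDT1 siRNA. The differences were 2.91 for EGR1, 2.18 for CEBPG, 2.10 for CDT1, 2.02 for CDC25A, 2.02 for ANXA2P2, 1.99 for TRIB3, 1.56 for ATF3 and 0.71 for NFE2L2. They were -2.03 for LAPTM5, -1.96 for ABCA1, -1.78 for RAB40B, -1.71 for PAQR6, -1.68 for TSPAN31, -1.66 for AKR1C3, -1.18 for GDF15 and -0.96 for MDM2.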

How the results depend on the processing

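For MLN4924 in p53 siRNA cells, the scaling of the arrays moved the counts most, and the cause was not tested. After centring, the calls numbered 3535 higher and 1522 lower. They numbered 1063 and 3473 as deposited, with 1610 higher after quantile normalization and 1695 higher after cyclic loess. Without a minimum fold 5423 were higher, and at an adjusted p under 0.01 and 2-fold 1092 were higher and 709 lower. With the spread taken from the 9 arrays alone 3534 were higher and 1453 lower. Leaving out 1 array gave 3178 to 3583 higher and 1424 to 1511 lower.

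For the difference from GL2 siRNA cells (1378 more positive, 687 more negative), the counts were 658 and 1435 at the deposited scaling and 363 and 257 at the stricter threshold. More positive genes numbered 907 after cyclic loess, 721 after quantile normalization and 835 against the first DMSO set. Leaving out 1 array gave 889 to 1515 and 501 to 696, with the lowest counts without GL2 MLN4924 replicate 3. For the difference from CDT1 siRNA cells (1239 and 489), the counts were 1879 and 837 with array weights, 587 and 735 after cyclic loess, 375 and 1361 at the deposited scaling and 249 and 163 at the stricter threshold, with 432 more positive after quantile normalization. Leaving out 1 array gave 854 to 1318 and 363 to 471.

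Between the DMSO sets (17 higher, 40 lower), the counts were 102 and 149 with array weights, 8 and 19 with the mean of probe sets, 44 and 89 without the 3 doubted libraries and 1 and 13 at the stricter threshold. Higher genes numbered 11 at the deposited scaling, 26 with a pseudocount of 16 and 27 after quantile normalization. Leaving out 1 array gave 3 to 10 and 15 to 35.

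The labels do not say whether same-numbered arrays share more than a number. Their deviations correlated at -0.058 to 0.092, within the range of -0.137 to 0.13 of differently numbered arrays. With 3 arrays per group this cannot decide whether they were paired. With the replicate block 3534 genes were higher and 1525 lower, with 1341 and 680 for the difference from GL2, 1206 and 479 for that from CDT1 and 16 and 41 between the DMSO sets. Among 247 values of named genes, the block and leaving out the doubted libraries changed no call. Most of these values are changes in p53 siRNA cells, whose 9 arrays include no doubted library. Other differences from GL2 siRNA cells did change call without those libraries. For example, those of JUN, S100B, GADD45A, GCLM, ASNS and CCNB1 were no longer called, and those of SYTL5 and IGFBP5 became called. Among the 42 ribosome biogenesis genes, 20 were more positive with those libraries and 11 without them. Of the 247 values, calls were lost for 35 at the deposited scaling, 36 after quantile normalization, 32 after cyclic loess and 51 at the stricter threshold. With the mean of probe sets DCUN1D5 turned to -0.00 and COL1A1 to -0.45. Dim genes limit the size of a fold.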

Other observations

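Among all genes, dim ones included, KRTAP3-1, a keratin-associated protein gene, had the largest increase (5.18 ± 0.33), followed by TNIP3 (4.37). MGP, encoding matrix Gla protein, went from 7.29, 7.80 and 8.66 (lowest, median and highest of 6 DMSO arrays) to 0.52, 3.23 and 1.58 with MLN4924 (-6.09 ± 0.43), far below its DMSO range. B3GNT7 (-5.74 ± 0.37) and FOXD3, a neural crest transcription factor (-4.60 ± 0.32), also fell to dim values. The replication-type histone genes that fell include H2AC6 (-1.13) and H1-2 (-1.01). Of 21 heat shock genes HSF1, the factor that drives them, rose (1.01), and CRYAB, which was dim with MLN4924, and HSPB1 fell (-1.78 and -0.90).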
